A study of Brassica napus with 9 samples.

Results

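The 3 mock-treated guard cell libraries of Brassica napus, of 9 libraries in the series, were examined for the expression of the A and C subgenomes before any abscisic acid (ABA) was given. The libraries were taken by their labels, and genes were sorted by their identifiers, of which 44452 start with BnaA, 56055 with BnaC and 533 with BnaU, of 101040 in all. The 2 digits after that letter name the chromosome, and nn marks a gene without a chromosome number.

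Every library came from guard cell protoplasts, which are cells freed of their walls, of leaves of the double-haploid line DH12075. The mock libraries received ethanol in the same proportion as the ABA libraries, which received 10 µM ABA for 15 or 60 min (3 libraries each), and all were kept under light at room temperature. Each library pooled several protoplast preparations. Each of the replicate numbers 1, 2 and 3 joins 1 library of every group. Total counts of mock replicates 1, 2 and 3 were 88051359, 121981439 and 114440779, and no pair of them was a near copy, with a chi-square per degree of freedom of at least 109 between their counts.

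Brassica napus is an allotetraploid that arose from crosses between Brassica rapa, which gave the A subgenome, and Brassica oleracea, which gave the C subgenome. Most genes are therefore present as an A copy and a matching C copy, called homeologs, and older duplications within each parent add further copies. Pieces of chromosomes have been exchanged between matching A and C chromosomes in many lines of this species. Guard cells form the pair around each stomatal pore, and ABA makes them close it.

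Reads were aligned to the genome of another line, Darmor, and only reads that could be assigned to a single gene were counted. Reads shared by near-identical copies are therefore missing from the counts, and sequence differences between DH12075 and Darmor may lower them, to an extent that was not tested. Counts were not corrected for gene length, and the reference gene table, which is of another assembly, matched only 3.31% of the identifiers.

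The mock libraries differed in the summed level of guard cell genes. The 7 listed copies of MPK12, ALMT12 and OST1, a kinase, an anion channel and a kinase of guard cells in Arabidopsis, summed to 293, 246 and 911 CPM (counts scaled to the size of the library) in mock replicates 1, 2 and 3. None of the 7 was at 0. The copies of MPK12 and ALMT12 gave most of the sum. Those of OST1 varied less, at 2.40, 2.61 and 2.85 CPM (BnaA01g03110D) and at 3.28, 4.08 and 4.25 CPM (BnaC01g04370D). CAB1 (BnaC03g59520D), which encodes a chlorophyll-binding protein, was at 45.8, 46.5 and 21.6 CPM. It was taken here as a gene of photosynthetic cells such as mesophyll, while the study lists it as a target of MYC2. Whether it sets mesophyll apart from guard cells was not tested. Replicate 3 was thus highest in guard cell genes and lowest in CAB1. Other marker genes were not analysed here. The study counted its protoplasts in a hemacytometer and reports guard cells of very high purity. Whether the libraries differed in purity was not tested.

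A larger share of A genes than of C genes was expressed. A gene was called expressed in a library when it reached 1 CPM, with libraries scaled by TMM (trimmed mean of M values). Of the A genes, 38.9%, 38.3% and 39.5% were expressed in replicates 1, 2 and 3. Of the C genes, 32.9%, 32.4% and 33.3% were expressed. Every A value lay above every C value. Replicate 3 was highest and replicate 2 lowest in both subgenomes, the order also seen for the summed guard cell genes. Of the single guard cell copies, all were highest in replicate 3. The ALMT12 copy BnaC07g34970D and the OST1 copies BnaA01g03110D and BnaC01g04370D were lowest in replicate 1, not in replicate 2. Whether these orders are linked was not tested.

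The difference between A and C was 6.04 ± 0.12 percentage points (SD, n = 3), and the expressed share of A was 1.18 times that of C. The exact two-sided sign-flip test over the 3 libraries gave p = 0.25, which is the lowest value that 3 libraries can give, and the same value after Benjamini-Hochberg adjustment over the 5 tests run. Of the genes with neither prefix, 14.2% ± 0.5 (SD, n = 3) were expressed.

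In absolute numbers the order was the other way, because more C genes are annotated. The expressed A genes numbered 17298, 17044 and 17562, and the expressed C genes 18458, 18159 and 18683. Every C number was above every A number. Expression in all 3 mock libraries was found for 16076 A genes and 17058 C genes. No count in any mock library was found for 10909 A genes, or 24.5%, and for 18059 C genes, or 32.2%.

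Among genes expressed at 1 CPM or more, the A and C levels were nearly equal. The median level of expressed A genes was 7.71, 7.88 and 7.65 CPM in replicates 1, 2 and 3. That of expressed C genes was 7.54, 7.76 and 7.62 CPM. The A median was the higher in each library, but the 2 sets of values overlapped between libraries, and the difference was 0.02 ± 0.01 on the log2 scale (SD, n = 3, exact sign-flip test p = 0.25). With expression called at 5 CPM the difference had the opposite sign, at -0.0037. With lower thresholds it was larger, at 0.12 for 0.1 CPM, 0.12 for 10 counts and 0.30 for 1 count, and it was 0.43 over all genes with a count in any mock library, where 0.01 CPM was added.

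At 1 CPM, the lower and upper quartiles over expressed genes averaged 3.02 and 20.9 CPM in A, and 2.94 and 20.9 CPM in C.

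The 2 subgenomes held almost equal parts of the counts. A genes took 49.6%, 49.5% and 48.9% of all counts in replicates 1, 2 and 3. C genes took 50.3%, 50.3% and 50.9%. The C part was the larger in every library and did not overlap the A part, by 1.15 ± 0.70 percentage points (SD, n = 3, exact sign-flip test p = 0.25).

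Counting error was far smaller than these differences. The 95% Wilson interval of the A share in replicate 1 ran from 49.56% to 49.58%, and it covers counting error only. The order depended on the genes without a chromosome number, of which C has 7877 and A has 4202. Without them A held 50.13% ± 0.37 and C 49.87% ± 0.37 of the remaining counts (SD, n = 3), so the mean order turned. Per annotated gene, the counts of A were 1.23 ± 0.02 times those of C (SD, n = 3), and per expressed gene 1.04 ± 0.02 times.

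In replicates 1, 2 and 3, the 713, 522 and 881 highest A genes held 50% of the A counts, against 863, 651 and 1019 of the C genes. The number was lower for A than for C within every library, but as a share of the annotated genes it was higher for A in every library, at 1.60%, 1.17% and 1.98% against 1.54%, 1.16% and 1.82%. The 10 highest A genes held 8.33% ± 1.66 of the A counts, and the 10 highest C genes 6.55% ± 1.32 of the C counts (SD, n = 3).

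The difference between the subgenomes lay mostly at the silent end of the scale. Classes were set on the mean CPM over the 3 mock libraries. In the class from 1 to 10 CPM there were 9858 A genes, or 22.2% of A, and 10670 C genes, or 19.0% of C. From 10 to 100 CPM there were 6854 and 7174 genes, or 15.4% and 12.8%. From 0.1 to 1 CPM there were 6869 and 7776 genes, or 15.5% and 13.9%. The share of A was the higher in each of these classes. With a mean under 0.1 CPM but at least 1 count stood about equal shares, 20.7% of A and 20.6% of C.

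Above 1000 CPM stood 39 A genes and 33 C genes. They held 8.15% ± 1.43 (A) and 6.40% ± 1.11 (C) of all counts (SD, n = 3). In the classes from 1 to 1000 CPM the C genes held the larger part, for example 18.2% ± 0.7 against 16.7% ± 0.8 from 100 to 1000 CPM. Without the 100 genes with most counts, the lead of C over A in the share of counts was 3.29 percentage points.

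**Figure D1:**
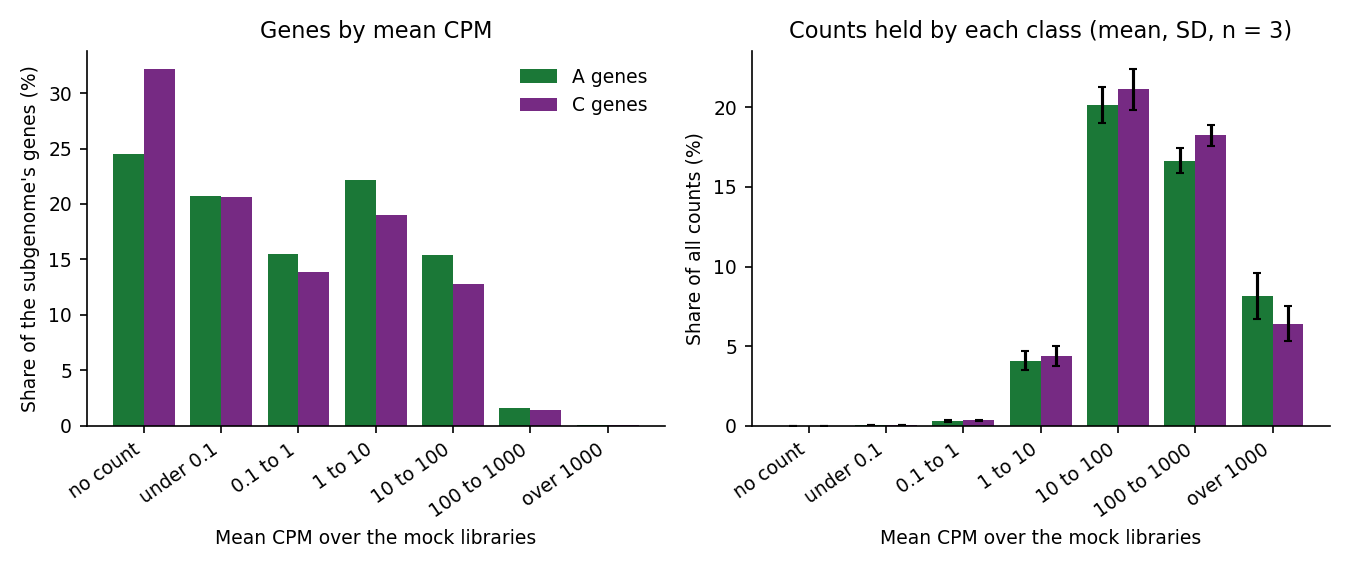
The left panel gives the share of A genes (green) and C genes (purple) in each class of mean CPM over the 3 mock libraries, and the right panel the share of all counts held by each class as the mean of the libraries with SD. The class without a count holds 24.5% of A genes and 32.2% of C genes, and the class over 1000 CPM is the only one with counts in which A holds more counts than C.

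The highest A gene was BnaA10g17650D, at 8955, 9292 and 5836 CPM in replicates 1, 2 and 3. The second A gene was BnaA03g32320D, at 5017, 11760 and 4655 CPM. The sources used here give no function for either identifier. BnaA10g17650D alone took from 16.2% to 21.9% of the counts of chromosome A10. BnaA03g32320D was at its highest in replicate 2, where it took 13.4% of the counts of A03.

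The highest C gene was BnaC03g37680D, at 3219, 8338 and 3612 CPM. The second was BnaC06g02740D, at 5832, 4156 and 3353 CPM. BnaC03g37680D, BnaA03g32320D and BnaA10g17650D were highest in replicate 2, and BnaC06g02740D in replicate 1. All of them except BnaC03g37680D were lowest in replicate 3.

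The spread between mock libraries was alike in both subgenomes. The median coefficient of variation over the 3 libraries was 22.3% for 17451 A genes and 22.2% for 18653 C genes with a mean of at least 1 CPM. Of these genes, 23.4% in A and 23.4% in C differed more than 2-fold between the highest and the lowest library.

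Within each subgenome the expressed share also differed between chromosomes. In A, the expressed share was highest on A06, at 43.9%, 43.4% and 44.3% in replicates 1, 2 and 3, and lowest on A02, at 34.0%, 32.8% and 33.9%. In C, it was highest on C05, at 38.3%, 38.1% and 39.3%, and lowest on C02, at 26.2%, 26.5% and 26%. These 4 chromosomes held their places in all 3 libraries. In each subgenome the values of the highest chromosome did not overlap those of the lowest. The values of A06 did overlap those of A10, which was at 43.8% in replicate 3.

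The distance between highest and lowest was 10.3 percentage points in A and 12.3 in C. Next to A06 stood A10, at 43.1% ± 0.6, and next to A02 stood A04, at 35.1% ± 0.9 (SD, n = 3). Of the neighbours in the A order, A09 and A08 lay 0.069 percentage points apart and kept their order in 1 of 3 libraries, and A01 and A07 kept theirs in 2 of 3. All other neighbours, and all neighbours in C, kept their order in 3 of 3 libraries.

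The chromosomes of the subgenomes overlapped. Of the 10 A chromosomes, 8 lay above every C chromosome in mean expressed share. A02 and A04 were the exceptions, and 6 of the 9 C chromosomes lay above A02. The remaining C chromosomes, C02, C04 and C06, lay below every A chromosome.

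Each A chromosome had a higher expressed share than the C chromosome of the same number, in 3 of 3 libraries for each of the 9 pairs. The difference ranged from 3.09 ± 0.24 percentage points for A05 and C05 to 10.6 ± 0.1 for A06 and C06 (SD, n = 3). Chromosomes 01, 02 and 03 are largely homeologous between A and C, whereas several other same-numbered chromosomes match only in part. For 01, 02 and 03 the differences were 6.89 ± 0.08, 7.34 ± 0.87 and 3.62 ± 0.32 percentage points (SD, n = 3).

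The median level of expressed genes did not follow the same order. A02 was 1.27 ± 0.04 times C02, in 3 of 3 libraries, and A03 was 0.903 ± 0.006 times C03 (SD, n = 3), below it in 3 of 3. Of the 9 pairs, A was the higher in every library in 5 and the lower in every library in 4. C02 had the lowest median, at 6.04, 6.51 and 6.12 CPM, and C03 the highest of the C chromosomes, at 8.50, 8.92 and 8.49 CPM. In A the medians lay closer together, from 7.43 CPM on A04 to 8.45 CPM on A01.

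C02 and A04 also held few counts for their number of genes. C02 carries 4893 genes, or 4.84% of all, and held 3.08%, 3.15% and 2.97% of the counts in replicates 1, 2 and 3. A04 carries 2.94% of the genes and held 2.25%, 2.14% and 2.46% of the counts. The ratio of the share of counts to the share of genes was 0.633 ± 0.019 for C02 and 0.777 ± 0.056 for A04, against 1.35 ± 0.04 for A10 at the upper end (SD, n = 3). C03 and A03 held the largest parts, at 8.23% ± 0.19 and 7.49% ± 0.23 of the counts (SD, n = 3).

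Genes without a chromosome number were expressed less often than the numbered genes of the same subgenome. The expressed share was 29.6% ± 0.4 against 39.9% ± 0.6 in A, and 26.2% ± 0.5 against 34.0% ± 0.5 in C (SD, n = 3). The values did not overlap in either subgenome.

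**Figure D2:**
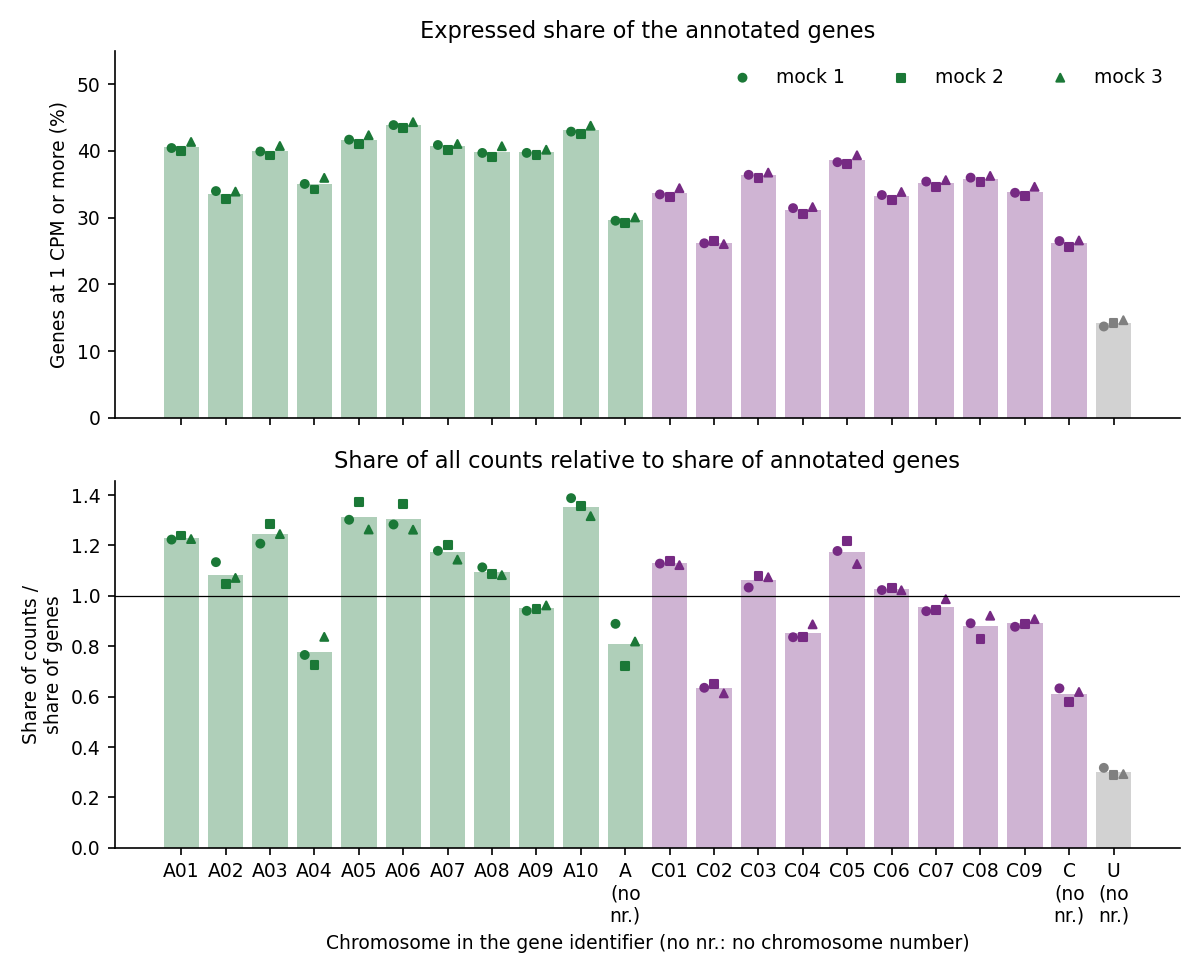
The upper panel gives the percentage of annotated genes at 1 CPM or more on each chromosome, and the lower panel the share of all counts divided by the share of annotated genes, where the line at 1 marks equal shares. Bars are means and symbols the 3 mock libraries. C02 is the lowest numbered chromosome in both panels, at 26.2% and 0.633.

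Expression varied along the chromosomes too. The genes of each chromosome were laid in the order of their identifiers and divided into windows of 50 genes. Genes without a chromosome number were laid out in the same way as groups of their own, although their identifiers give no place on a chromosome. The expressed share, as the mean of the 3 libraries, had a median of 38.7% over 884 A windows and of 32.0% over 1115 C windows. The ranges overlapped widely, from 8% to 67.3% in A and from 0 to 72.0% in C. Less than 15% was reached by 41 C windows and 5 A windows, and more than 60% by 12 C windows and 16 A windows. With numbered genes alone the median was 40% over 800 A windows and 33.3% over 958 C windows. Those ranged from 14% to 67.3% in A and from 6.67% to 72% in C, with 1 A window and 28 C windows under 15%.

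The 3 highest A windows were BnaA06g23010D to BnaA06g23500D, with 67.3% of genes expressed, BnaA01g13510D to BnaA01g14000D, with 66.7%, and BnaA10g17510D to BnaA10g18000D, with 66.0%. The last of these contains BnaA10g17650D. The 3 highest C windows were BnaC05g06010D to BnaC05g06500D, with 72.0%, BnaC09g47010D to BnaC09g47500D, with 69.3%, and BnaC05g02510D to BnaC05g03000D, with 66.0%. All 6 carried a chromosome number, and C05 held the first and the last of the C windows.

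The lowest C window was BnaCnng10010D to BnaCnng10500D, in which no gene reached 1 CPM in any mock library, although 20 of its 50 genes had at least 1 count. It was followed by BnaC02g26510D to BnaC02g27000D and BnaCnng74510D to BnaCnng75000D, each at 6.67%. The lowest A windows were BnaAnng40010D to BnaAnng40500D, at 8%, BnaAnng39510D to BnaAnng40000D, at 9.33%, and BnaA02g22510D to BnaA02g23000D, at 14%. Chromosome 02 thus held the lowest numbered window of both subgenomes.

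The longest run of neighbouring genes without any count in the mock libraries was on C02, with 23 genes from BnaC02g26530D to BnaC02g26750D. In the 6 ABA libraries together these genes had 2 counts. The next runs had 14 genes each, from BnaC02g18960D to BnaC02g19090D, from BnaC09g21300D to BnaC09g21430D and from BnaA02g25240D to BnaA02g25370D, with 11, 0 and 4 counts in the ABA libraries. Runs of at least 10 genes numbered 23 in C, with 279 genes, and 8 in A, with 87 genes. Of the 8 in A, 4 were on A02. Genes without a chromosome number made up 2 of the runs in A and 4 of those in C. Whether these stretches are absent from DH12075, silent in guard cells or not uniquely readable was not tested.

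The start of C02 differed between the mock libraries. The stretch was chosen after its values were seen, and its levels were taken with TMM over all 9 libraries. Of the first 500 genes, BnaC02g00010D to BnaC02g05000D, 114, 155 and 86 were expressed in mock replicates 1, 2 and 3. Their summed level was 1075, 3333 and 757 CPM. Replicate 2 was highest, replicate 1 lay between and replicate 3 was lowest.

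The same order was found after ABA. The expressed genes numbered 115, 157 and 87 at 15 min, and 115, 158 and 88 at 60 min, for replicates 1, 2 and 3. The summed level was 1179, 3503 and 828 CPM at 15 min, and 1430, 4084 and 972 CPM at 60 min. The order of the replicate numbers was the same in all 3 groups. Within each number the summed level was highest at 60 min and lowest in the mock library, but this was not particular to the stretch. The sum over all other A and C genes rose in the same order within each number. In replicate 3 it was 833675, 873806 and 1060450 CPM in the mock, 15-min and 60-min libraries. Within each number the 3 libraries come from the same pool of preparations, so they are not independent of each other.

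Of the 500 genes, 86 reached 1 CPM in mock replicate 3, the lowest of the 3 libraries there, so that none of the 86 entered only through a library in which it was high. Over these the median difference of replicate 2 from replicate 3 was 1.43 on the log2 scale (0.1 CPM added to each value), and that of replicate 1 from replicate 3 was 0.42. Replicate 2 exceeded replicate 1, and replicate 1 exceeded replicate 3, in 65 of the 86 genes, or 75.6%. Among the other A and C genes that reached 1 CPM in replicate 3, this order was found in 21%, and the median difference between replicates 2 and 3 was -0.02 on the log2 scale. On the rest of C02 the order was found in 17.7%. In the ABA libraries the same 86 genes showed the order in 61 genes, or 70.9%, at both times.

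The 3 highest genes of the stretch show its pattern in single copies. BnaC02g00990D was at 311, 621 and 211 CPM in mock replicates 1, 2 and 3. BnaC02g04180D was at 58.3, 883 and 46.9 CPM. BnaC02g04560D was at 82.4, 166 and 51.4 CPM. Replicate 2 was the highest and replicate 3 the lowest for each, and the sources used here give no function for these identifiers.

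The stretch was also set beside 1998 windows of 50 genes with at least 5 genes at 1 CPM in replicate 3. Of the first 10 windows of C02, 8 had that many, and their median log2 difference between mock replicates 2 and 3 ran from 0.91 to 2.79. These 8 were among the 10 highest windows of all, together with the windows from BnaCnng12510D, at 1.64, and from BnaCnng78010D, at 0.94, which have no chromosome number. The 11th window of C02 was at -0.0073 and the 12th at -0.0010. With genes at 1 CPM in any mock library they were at 0.56 and 0.28, so where the stretch ends depends on the filter. Since the stretch was picked for this difference, its place among the windows is a description.

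On A02, the homeologous chromosome, the numbers of expressed genes among the first 500 lay closer together. Of these, 214, 209 and 215 were expressed in mock replicates 1, 2 and 3. Over the 215 that reached 1 CPM in replicate 3, the median log2 difference between replicates 2 and 3 was -0.15. Window by window, with the same filter, it was -0.56, -0.27, -0.18, -0.32 and -0.40 in windows 1 to 5 of A02. In windows 6 to 10 it was 0.14, -0.0068, 0.029, -0.047 and -0.071. The middle 90% of the windows outside the start of C02 ran from -0.45 to 0.33. Window 1 of A02 lay below this range. Whether the A02 and C02 differences are linked was not tested. The cause of the C02 difference was not tested. Without these 500 genes C02 had an expressed share of 26.4% ± 0.5 (SD, n = 3) and a median level of 6.66 CPM, and it stayed the lowest C chromosome in both.

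**Figure D3:**
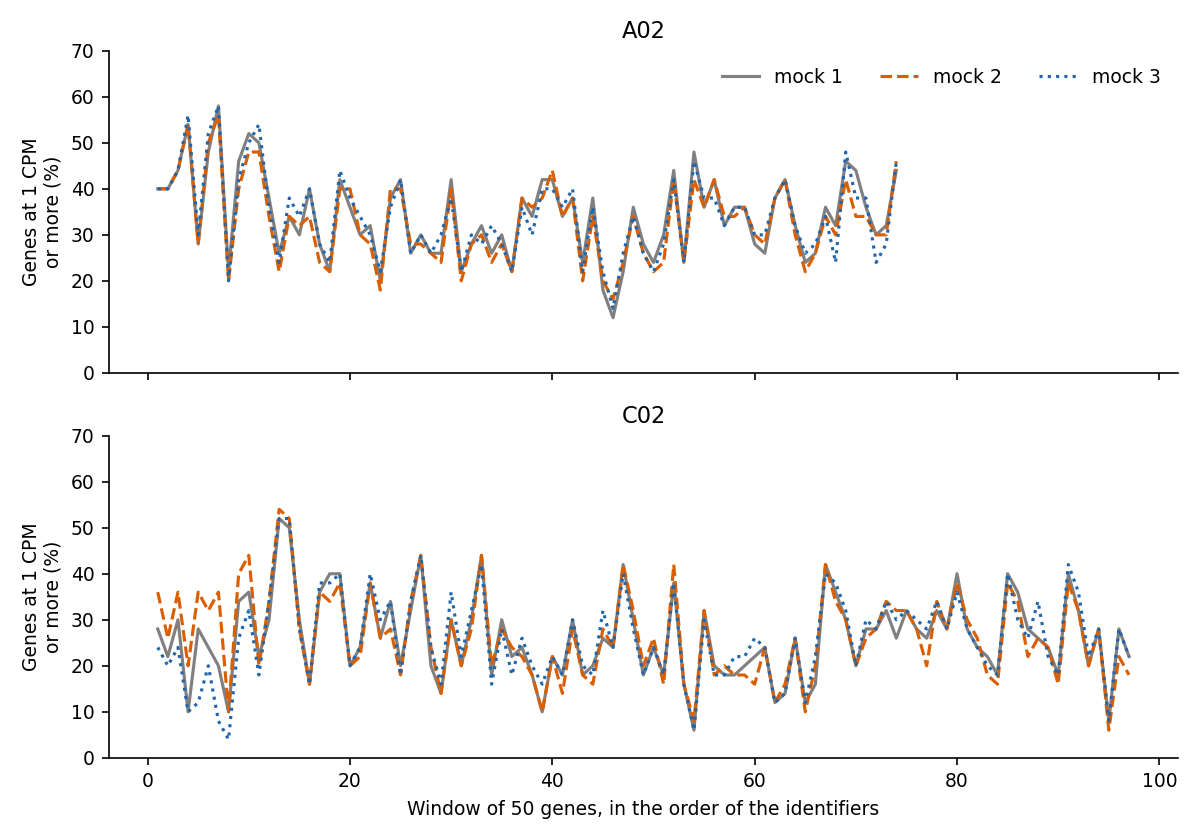
Percentage of genes at 1 CPM or more in consecutive windows of 50 genes along A02 (upper panel) and C02 (lower panel), with 1 line for each mock library. In the first 10 windows of C02 replicate 2 is at or above replicate 1 and replicate 3 is at or below it.

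A and C copies were then compared within gene families named after their Arabidopsis counterparts. Of 68 families in the study's lists, with 169 genes, 49 had at least 1 A and 1 C member, and all 49 had at least 10 counts in every mock library. For 33 of the 49 the lists hold only members regulated by ABA in these libraries, so copies may be missing and the sums are not complete. Levels were summed over the copies of a family, and the ratio was taken on the log2 scale after adding 0.1 CPM to both sums.

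The A sum was the higher in all 3 mock libraries in 25 families, the C sum in 20, and 4 were mixed. The median log2 ratio of A to C was 0.33. In the 34 families with equal numbers of copies it was -0.14, and A was the higher in 15 and C in 16. For comparison, A genes held 49.3% ± 0.4 of all counts (SD, n = 3). More than 2-fold apart were 24 of the 49 families, 12 towards A and 12 towards C. In the 21 families with 1 copy on each side, A was the higher in 11 and C in 8. Over all 49, with the mean per copy in place of the sum, A was the higher in every library in 23 and C in 20.

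Among the ABA receptors, which bind ABA and then block the phosphatases, the A and C copies shared the expression to different degrees. PYL4 was nearly even, with A copies at 98.0, 83 and 161 CPM and C copies at 116, 86.4 and 189 CPM in replicates 1, 2 and 3. PYR1 was at 22.8, 14.8 and 46.0 CPM in A and at 14.7, 9.58 and 38.3 CPM in C. All 4 sums were highest in replicate 3 and lowest in replicate 2.

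PYL6 and PYL5 leaned in opposite directions. The A copies of PYL6 summed to 71.6, 33.0 and 139 CPM and the C copies to 29.5, 9.82 and 77.2 CPM, a log2 ratio of 1.29 ± 0.45 (SD, n = 3). The A copies of PYL5 summed to 5.82, 2.88 and 6.95 CPM and the C copies to 15.5, 7.33 and 29.8 CPM, a log2 ratio of -1.60 ± 0.42 (SD, n = 3). The PYL6 sum of A rested mainly on BnaA04g29300D, at 75.4 CPM on average, and that of C on BnaC04g47050D, at 33.5 CPM.

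The type 2C protein phosphatases of the ABA pathway, which hold its kinases inactive without ABA, were higher in A in every library in 5 of 7 families and higher in C in 1, beside 25 and 20 of the 49. ABI1 was the one higher in C, with its 1 listed A copy, BnaA01g15250D, at 109, 144 and 92.8 CPM and its 3 C copies at 360, 460 and 320 CPM. BnaC01g18020D alone, at 212, 304 and 201 CPM, exceeded the A copy in each library. ABI2, HAB1, HAB2 and AHG3 were each higher in A in 3 of 3 libraries, with log2 ratios of 0.39 ± 0.28, 0.55 ± 0.17, 1.09 ± 0.03 and 0.45 ± 0.24 (SD, n = 3). For AHG3 this sets 2 A copies against 1 listed C copy, BnaC05g41830D, at 7.63, 14.6 and 8.50 CPM. The A copy BnaA05g27660D was at 10.9, 18.4 and 8.60 CPM, and BnaA01g37370D at 1.18, 2.59 and 1.08 CPM. The mean of the 2 A copies was below the C copy in each library. HAI1 was mixed, at 0.30 ± 0.50, and was higher in A in 2 of 3 libraries.

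AIP1, a phosphatase of the same group, was among the 4 families that leaned most to A. Its A copies summed to 3.05, 9.42 and 2.70 CPM. Its C copy, BnaC05g05180D, was at 0.353, 0.569 and 0.134 CPM and so below 1 CPM in every mock library. The log2 ratio was 3.40 ± 0.54 (SD, n = 3).

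The summed levels of the kinases OST1 and MPK12 leaned to C. OST1, which passes the ABA signal to ion channels in Arabidopsis, was at 2.40, 2.61 and 2.85 CPM in A (BnaA01g03110D) and at 3.28, 4.08 and 4.25 CPM in C (BnaC01g04370D). MPK12, a mitogen-activated protein kinase, was at 59.9, 30.5 and 171 CPM in A and at 100, 61.7 and 219 CPM in its 2 C copies. Within every library the C sum was the higher for both kinases. The MPK12 sums overlapped between libraries, since replicate 3 was high on both sides.

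Among the transport genes, ALMT12, an anion channel that opens during stomatal closure, was at 47.6, 40.9 and 180 CPM in A and at 79.7, 106 and 334 CPM in C. ABCG25, an exporter of ABA, leaned to C. Its A copy, BnaA07g29760D, was at 0.375, 0.0466 and 0.0554 CPM, and its C copy, BnaC06g32970D, at 3.65, 2.95 and 0.933 CPM. The log2 ratio was -3.37 ± 0.89 (SD, n = 3), but it rests on 34, 5 and 7 counts of the A copy and on the 0.1 CPM added. With 0.01 CPM added it was -4.27 ± 1.28 (SD, n = 3).

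ABA1, which encodes zeaxanthin epoxidase of ABA synthesis, leaned to A. Only regulated members are listed, 2 A copies and 1 C copy, so a further C copy may be missing. Its A copies summed to 17.1, 19.0 and 8.46 CPM, almost all of it from BnaA07g12170D. Its C copy, BnaC09g07550D, was at 1.09, 1.19 and 1.08 CPM. The other A copy, BnaA09g07610D, was below the C copy in each library, at 0.430, 0.438 and 0.340 CPM. The log2 ratio was 3.53 ± 0.58 (SD, n = 3). The C copy varied little between the libraries, while the A sum was lowest in replicate 3.

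Of the transcription factors, RAV2 was split furthest. Its A copy, BnaA02g14040D, was at 11.6, 8.95 and 15.3 CPM, and its C copy, BnaC02g18650D, at 0, 0 and 0.00791 CPM, which is 1 count in replicate 3 and none in the others. Over the mock libraries the counts were 3948 to 1, a ratio of 3948 with an exact 95% interval from 708 to 155977, for counting error only. The C copy lies in a poorly expressed stretch, in which 28 of 51 neighbouring genes (54.9%) had no count in any mock library, against 37.7% of all C02 genes. Around the A copy it was 17 of 51 (33.3%), against 29.4% of all A02 genes. Whether the level of the C copy is linked to its stretch was not tested.

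TGA1, a bZIP factor, leaned to C but at low levels. Its 3 A copies summed to 1.07, 0.531 and 0.182 CPM and its 3 C copies to 3.23, 2.38 and 3.25 CPM, of which BnaC03g49070D gave most. The log2 ratio was -2.35 ± 1.08 (SD, n = 3). The A values and C values did not overlap.

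Among the other families, ERD14, a dehydrin that accumulates in dry or cold tissue, combined a high level with a strong lean to A. Its A copies summed to 1358, 1679 and 1300 CPM, mainly from BnaA07g32420D at 1230, 1440 and 1083 CPM. Its C copies summed to 158, 165 and 178 CPM. The log2 ratio was 3.11 ± 0.24 (SD, n = 3).

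ATTSPO, a membrane protein induced by stress in Arabidopsis, and AT4G33210 leaned to C. The A copies of ATTSPO summed to 0.519, 0.820 and 0.482 CPM and the C copies to 6.46, 8.65 and 5.85 CPM, for a log2 ratio of -3.34 ± 0.08 (SD, n = 3). The C sum rested mainly on BnaC04g00110D, at 5.95, 7.62 and 5.35 CPM. The other C copy, BnaC04g51120D, was at 0.508, 1.03 and 0.498 CPM, near the A sum. AT4G33210 was at 18.9, 13.2 and 21.8 CPM in A (BnaA01g03630D) and at 66.9, 62.6 and 66.0 CPM in C (BnaC01g04970D). The A and C sums did not overlap in either family.

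**Figure D4:**
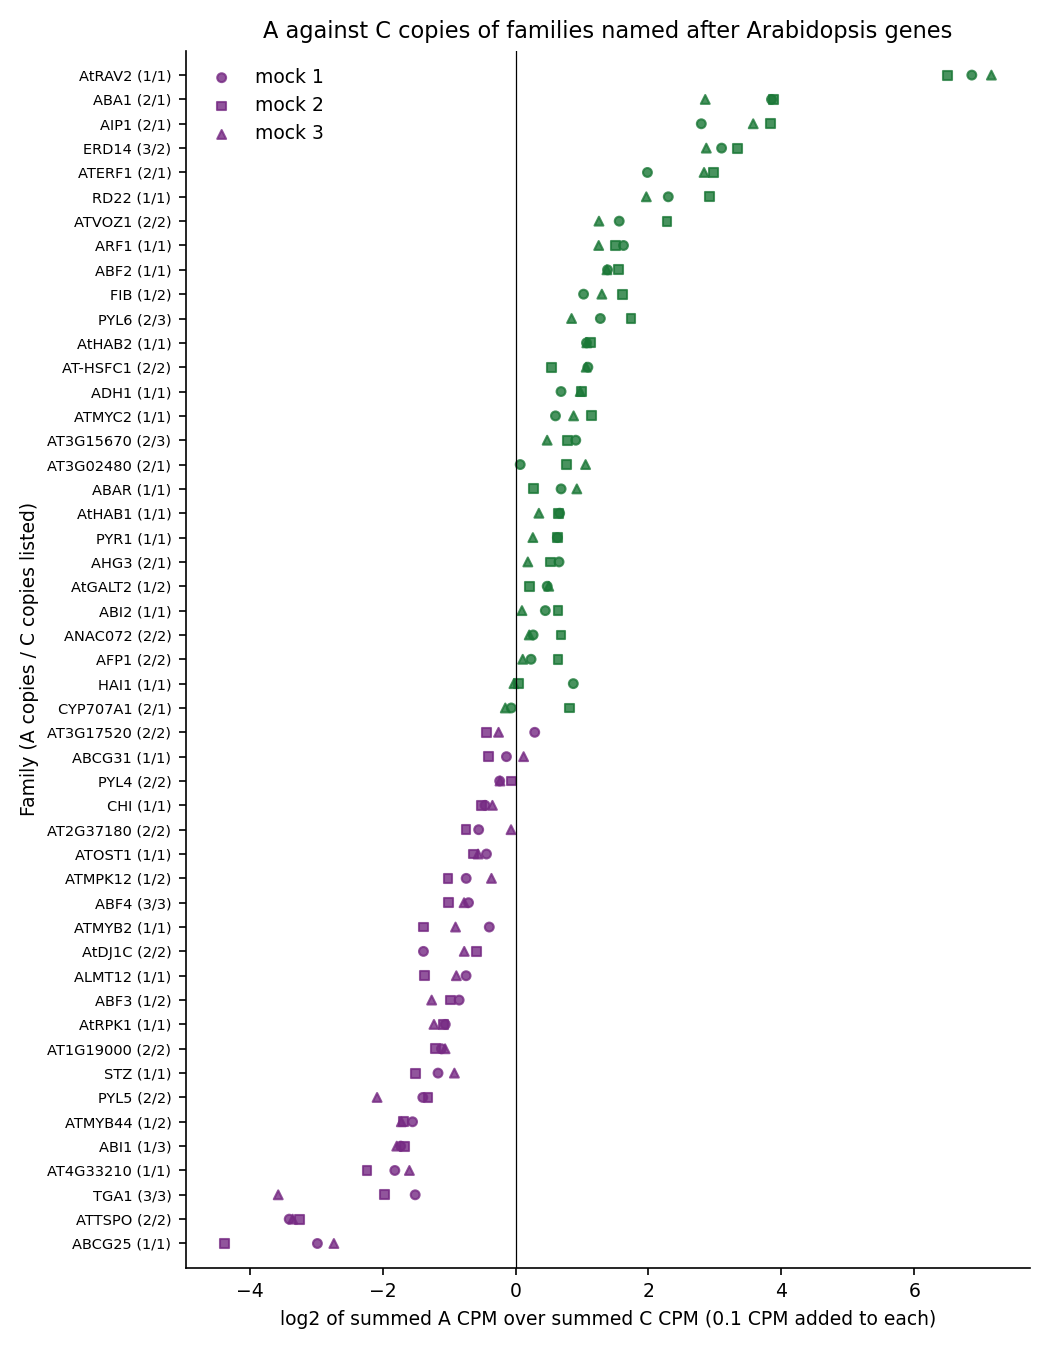
Log2 ratio of the summed CPM of A copies to that of C copies (0.1 CPM added to each) for 49 families, with 1 symbol for each mock library and the numbers of A and C copies listed in brackets. The symbols run from ABCG25, at a mean of -3.37, to RAV2, at 6.84. The values of RAV2, ABCG25 and ATMYB2, which have low copies, change by over 1.5 times when 0.01 CPM is added instead.

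The balance of the subgenomes was then followed into the ABA libraries. The A share of counts was 49.6%, 49.5% and 48.9% at 15 min and 49.3%, 49.2% and 48.6% at 60 min, in replicates 1, 2 and 3. It was lower than in the mock library of the same number in 3 of 3 pairs at both times. The difference was -0.04 ± 0.04 percentage points at 15 min and -0.28 ± 0.03 at 60 min (SD, n = 3), each with p = 0.25 in the exact two-sided sign-flip test. Between replicate numbers the A share varied by more than this, and the groups overlapped. With 1 mock group, and the time it was kept not given in the sources used here, time and ABA cannot be told apart. At 15 min the pairs no longer shared 1 direction when the genes without a chromosome number were left out (-0.00796 percentage points, exact p = 0.75) or the 10 or 100 genes with most counts (-0.0547, exact p = 0.5, and -0.0380, exact p = 1). At 60 min the exact p was 0.25 in all 3 of these settings.

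At 60 min the A chromosomes did not move together. The share of counts was lower than in the mock library of the same number in 3 of 3 pairs for 5 A chromosomes, among them A02 and A04, and higher for 3, among them A05. In C it was higher in 3 of 3 pairs for 4 chromosomes and lower for 2. The difference between A and C in the expressed share stayed at 5.96 ± 0.10 percentage points at 15 min and 5.85 ± 0.12 at 60 min, against 5.94 ± 0.11 in the mock libraries on the same scale, TMM over all 9 libraries (SD, n = 3).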

How the data were processed

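RNA-seq read counts of 3 mock-treated libraries were analysed, with the 6 ABA libraries for comparison. The deposited values are raw counts per gene, for which the authors used TopHat2 (alignment against Darmor) and HTSeq (counting of uniquely placed reads). The strand setting and the annotation release are not given in the sources used here. From the deposited counts, CPM was computed with TMM factors over the mock libraries (edgeR 4.0.16, R 4.3.3), which were 1.03, 0.880 and 1.10, and all else in Python 3.11.15. TMM over all 9 libraries was used where ABA libraries enter.

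Differences between A and C within a library, and between libraries of the same replicate number, were tested by exact two-sided sign-flip tests, with the library as the unit. No test was run over genes, which are not replicates. P-values measure only the spread between these libraries. The numbers pair libraries by the study's model. Deviations from group means correlated from 0.832 to 0.946 between libraries of the same number (r across genes).

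Members and lists were chosen with earlier results of these data known. Named genes are the 2 highest of each subgenome, the chromosomes and windows at either end, and families at either end of the A to C ratio with MPK12, OST1, ALMT12, the receptors and the phosphatases. The first 500 genes of C02 and the 3 highest genes among them were chosen after their values were seen. The summaries were tested on simulated data. Family names come from the study's lists. Reference gene tables held 3347 of the identifiers, for another assembly, so their coordinates and lengths were not used.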

Additional observations from a re-analysis of the deposited data

How the results depend on the processing

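The higher expressed share of A kept its direction under every alternative run, from 3.89 percentage points at 5 CPM to 7.81 at 1 count. The difference in median level, 0.02 on the log2 scale, had the opposite sign with expression called at 5 CPM (-0.0037), and was 0.12 at 0.1 CPM, 0.12 at 10 counts, 0.30 at 1 count and 0.43 when all genes with a count in any mock library entered (0.01 CPM added). The lead of C in the share of counts turned to a lead of A of 0.253 percentage points without genes lacking a chromosome number (exact sign-flip p = 0.5). Leaving out each replicate in turn gave 5.97 to 6.08 percentage points, 0.01 to 0.03 on the log2 scale and -1.38 to -0.748 percentage points for these 3 differences.

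The distance between the highest and lowest A chromosome was 10.8 percentage points with 1 count as the threshold. For the share of counts it was 4.47 (A) and 5.53 (C) without the 100 genes with most counts, against 5.21 and 5.17. The difference between A and C in the median coefficient of variation, 0.139 percentage points, was 0.557 for genes with a mean of at least 10 CPM and -0.293 with CPM of total counts, and from -0.0621 to 0.281 without each replicate. It has no stable sign.

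Without the replicate block, the A share of counts differed from mock by -0.04 percentage points at 15 min (exact permutation p = 0.6) and by -0.28 at 60 min (p = 0.5), where 3 against 3 allows no p below 0.1. Without each replicate the 15-min difference ranged between -0.0519 and -0.0129, and the 60-min difference between -0.299 and -0.271. The 15-min pairs did not share 1 sign without genes lacking a chromosome number (-0.00796, exact p = 0.75) or without the 10 or 100 genes with most counts (-0.0547, exact p = 0.5, and -0.0380, exact p = 1). Counts of families changed by less than 1.5 times under all alternatives run.

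RLE scaling, other scalings of the classes, leaving out replicates in the spread, leaving out the first 500 genes of C02 and the filter on mock replicate 3 were added after seeing the data. With genes at 1 CPM in any mock library, a filter first used and then replaced because it admits genes through the library in which they are high, the C02 difference between replicates 2 and 3 was 2.01 over 157 genes. Levels per kb were not run, because the reference table, of another assembly, matched too few genes. No test over 3 libraries reaches 0.05. Single libraries count low genes at a depth of at least 88051359 counts.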
